A study of Nothobranchius furzeri with 20 samples.

Results

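This account follows 150 genes, of 26739 in the count table, whose brain RNA level was lower in some of the 27-week turquoise killifish than in others. The 27-week libraries carry titles whose numbers fall into a pair of series. Replicates 1 to 5 are titled JM132 to JM136 and are called the lower set here. Replicates 6, 7, 9 and 10 are titled between JM139 and JM144 and are called the higher set. Replicate 8, titled JM141, belongs to neither set and entered the choice of genes only through the mean over the 20 libraries. No label says what the numbers stand for, so the sets are named only by them. The members were selected on measured values in 3 steps. A gene needed a mean of at least 1 CPM over the 20 libraries, where CPM is a gene's count on a scale that gives every library the same total. Its ranges in exercised and unexercised 9-week fish had to overlap. The genes were then ordered by a score, the lowest log2(CPM + 0.5) in the higher set minus the highest in the lower set, and the 150 highest scores were taken. The first step kept 18153 genes and the second 17606, and these 17606 genes are the background used throughout.

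The turquoise killifish, Nothobranchius furzeri, is an annual fish of African seasonal pools and a vertebrate model of ageing because it lives only for months. All fish were males of MZM-04/10p, a wild-derived laboratory strain, and the tissue was brain. The unexercised 9-week group held 5 fish, the exercised 9-week group 5 fish and the 27-week group 10 fish. Both exercised groups swam in a tunnel, a chamber in which a current makes the fish swim. An unexercised 27-week group was not analysed here, so age and exercise differ together between the 27-week and the unexercised 9-week fish. The labels do not say whether the libraries are from separate fish. A library is called a fish here, and a p-value reflects the spread between libraries, which may be technical.

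Bulk RNA-seq counts the messenger RNA of all cells of a dissected brain at once, neurons, glia, vessels and blood included. Fewer cells of a type and less RNA per cell cannot be told apart in such a sample. The deposited identifiers are not paired with gene names, and 0 of the 26739 matched the RefSeq table of this species. No role can therefore be given to a member, no marker of brain cells could be checked, and no sequence is printed. Members are given by rank of score, and 4 of them also by identifier. Reads from near-identical copies, overlapping genes or antisense partners may be shared between identifiers, since the strand setting of the counting is not given in the sources used here.

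Total counts ran from 15048627 to 34843199 per library. No member had a count of 0 in any library, and 1 member had fewer than 10 counts in a library, with 7 as the lowest. Replicate 8 of the 27-week fish stood apart in scale. Its TMM factor, which corrects library size for a few very abundant genes, was 0.736, against 0.984 to 1.05 in the other 19 libraries. On raw CPM the median background gene was 0.44 lower on the log2 scale in that library than the 9-week mean. Results that rest on replicate 8 are given on raw and on TMM-scaled CPM, or with and without it.

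The difference between the 27-week sets is what chose the members, so it is given as a description without a test. The ranges of the sets did not overlap in this direction for 1105 background genes, or 6.28%, and by construction for all 150 members. The mean CPM of the higher set was 1.27 to 5.71 times that of the lower set, with a median of 1.63 and quartiles of 1.46 and 2.01. It was at least 1.5 times higher in 103 members, at least 2 times in 40 and at least 3 times in 10. Mean levels over the 20 libraries, for which 1 CPM was required, ran from 1.25 to 471 CPM. In 4 members the lower set averaged below 1 CPM.

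The scores fell steeply at first and flatly afterwards. They were 2.22 for rank 1, 1.48 for rank 2, 1.39 for rank 3, 0.81 for rank 10 and 0.38 for rank 50. At the threshold no gap separated members from other genes. Rank 150, the last member, had at most 381.9 CPM in the lower set and at least 446.4 CPM in the higher set, a score of 0.2246. Rank 151, just outside, had 132.7 and 155.1 CPM, a score of 0.2242. A further 21 genes scored at least as high but were kept out because their 9-week ranges did not overlap.

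Nfu_g_1_021184, the member with the highest score, was separated between the sets by far more than the spread within either. In the lower set its level was 41.1, 38.2, 39.7, 47.5 and 37.4 CPM in replicates 1 to 5. In the higher set it was 239.9, 223.3, 233.1 and 235.6 CPM in replicates 6, 7, 9 and 10. Exercised 9-week fish had 178.2, 179.9, 170.2, 202.1 and 158.8 CPM, and unexercised 9-week fish had 237.5, 217.1, 193.1, 189.3 and 214.7 CPM. The 5 fish of the lower set thus stood alone, with every other library above 3 times their highest value. Replicate 8 had 165.8 CPM on the raw scale. The means were 40.8 ± 4.03 CPM (SD, n = 5) in the lower set, 233.0 ± 7.03 CPM (SD, n = 4) in the higher set, 177.8 ± 15.9 CPM (SD, n = 5) in exercised and 210.3 ± 19.7 CPM (SD, n = 5) in unexercised 9-week fish. Its length, as implied by RPKM and counts, was 5443 bp.

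Nfu_g_1_008080, rank 2, had the same layout at a lower level. The lower set had 11.3, 11.5, 11.9, 10.9 and 12.7 CPM, and the higher set had 38.8, 36.3, 43.8 and 43.5 CPM. Exercised 9-week fish ranged from 33.5 to 40.3 CPM and unexercised ones from 31.7 to 45.3 CPM. Replicate 8 had 32.4 CPM. The lower set was apart from all others, and the higher set and both 9-week groups overlapped each other. The higher set averaged 3.48 times the lower set.

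Ranks 3 and 4, given here by rank only, repeated this with small variations. Rank 3 had 23.3 to 44.7 CPM in the lower set, and its higher set, at 131.2 ± 15.4 CPM (SD, n = 4) with a highest value of 149.6 CPM, overlapped both 9-week groups. These ran from 96.2 to 143.4 CPM in exercised and from 138.4 to 190.4 CPM in unexercised fish. Rank 4 had 13.5 to 19.9 CPM in the lower set, 45.2 to 56.7 CPM in the higher set, 43.2 to 53.4 CPM in exercised and 44.8 to 58.9 CPM in unexercised 9-week fish.

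A pair of members named for a higher level at 27 weeks than in exercised 9-week fish did not follow that layout. Nfu_g_1_010874, rank 49, had 1.03, 0.431, 0.997, 0.584 and 0.799 CPM in exercised 9-week fish and 0.638 to 5.66 CPM in unexercised ones. In the exercised fish these were only 12 to 19 counts, so its fold changes against them rest on values near the floor. The lower set had 4.02 to 6.36 CPM, the higher set 8.44 to 15.4 CPM, and replicate 8 had 2552 CPM. Every 27-week fish thus exceeded every exercised 9-week fish, lower set included, and 1 library was far above all others. The implied length was 381 bp. Nfu_g_1_021472, rank 20, had 7.37 to 20.8 CPM in exercised and 20.0 to 29.3 CPM in unexercised 9-week fish. The lower set had 12.5 to 29.7 CPM, which overlapped both, and the higher set had 43.9 to 66.7 CPM, which overlapped neither.

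**Figure D1:**
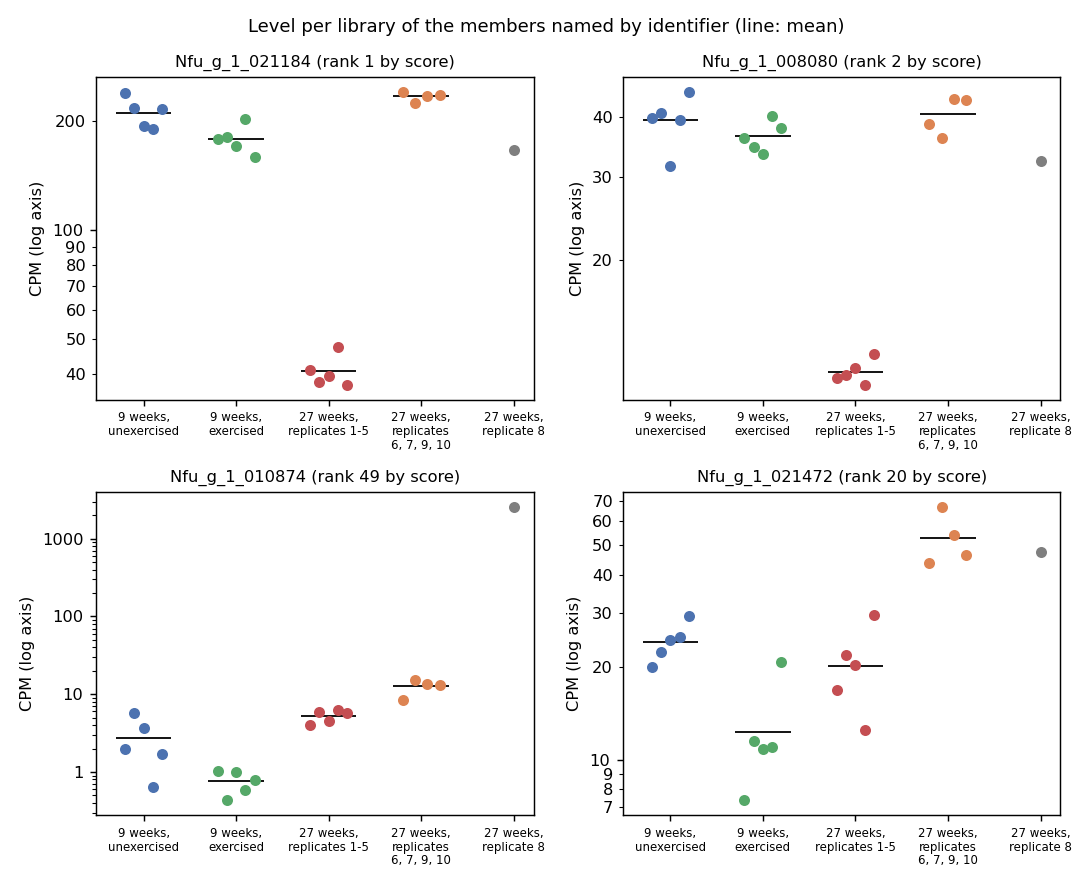
Level of the 4 members named by identifier, in CPM on a log axis, with 1 point per library and a line at the mean of each set. For Nfu_g_1_021184 and Nfu_g_1_008080 the 5 fish of the lower set (27-week replicates 1 to 5) sit apart from all others, at 37.4 to 47.5 and 10.9 to 12.7 CPM; for Nfu_g_1_010874 replicate 8 is at 2552 CPM.

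The plot of the 4 named members shows both layouts, the lower set below everything else in the upper panels and the exercised 9-week levels below or across the lower set in the lower panels. How many of the 150 members had each layout was counted from the ranges at 9 weeks, which the choice of members did not place relative to the 27-week fish. The lower set lay below all 10 of the 9-week fish in 77 members (51.3%), against 3.50% of the background and 31.9% of the 1105 genes with a score above 0, the members included. It lay below all exercised 9-week fish in 84 members (56.0%), against 5.55% and 41.1%. It lay below all unexercised 9-week fish in 110 members (73.3%), against 6.27% and 46.5%. The choice of members favours low values in the lower set, which raises these shares over the background by construction. The genes with a score above 0 share part of that choice. Another 150 genes were chosen by the same rule with the sets exchanged, which favours high values in the lower set. There the lower set lay above all 10 of the 9-week fish in 112 genes (74.7%). A lower set apart from all 9-week fish is thus not particular to the members. In 1 of the 77, rank 115, the higher set also lay below all 9-week fish, and it is described with the comparisons of age.

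The other 73 members were of 3 kinds. In 33 (22.0%) the lower set lay below the unexercised but not below the exercised 9-week fish. The share was 2.77% in the background and 14.7% in the genes with a score above 0. The reverse held in 7 (4.67%), against 2.05% and 9.23%. The choice of members bears on these shares too. In the last 33 (22.0%) the lower set overlapped or exceeded both 9-week groups, against 91.7% and 44.3%. In 11 of these 33 the exercised 9-week mean was below the mean of the lower set. The median fold between the 27-week sets was 1.56 in the 77 members and 2.00 in the 33 that overlapped both groups. Of the 10 members with the highest scores, 8 belonged to the 77 and 2 to those below the unexercised group only.

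A higher set above all 9-week fish was the rarer layout. It occurred in 7 members (4.67%), against 2.22% of the background and 5.79% of the 1105 genes with a score above 0. In 96 members (64.0%) both 9-week means fell between the means of the 27-week sets, compared with 9.30% of the background and 47.7% of the genes with a score above 0. The gap between the sets, by which members were chosen, makes this layout more common. No member had the lower set below and the higher set above all 9-week fish.

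**Figure D2:**
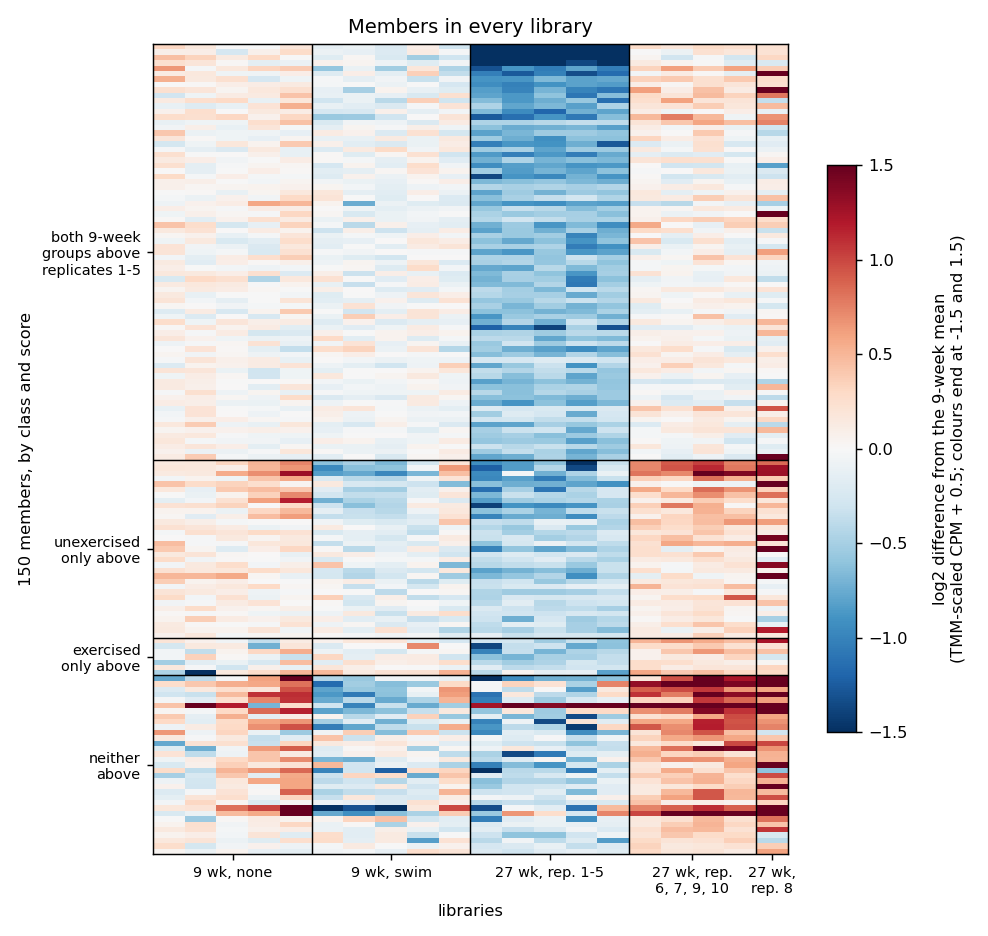
Heat map of the 150 members (rows, grouped by whether the lower 27-week set lay below both, one or neither 9-week group) in the 20 libraries (columns). Colour gives log2(CPM + 0.5) on TMM-scaled CPM minus the mean of the 10 9-week fish; the 5 columns of replicates 1 to 5 are blue in most rows, and the darkest red of the higher set lies mostly in rows with neither 9-week group above.

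The heat map of the members shows the 5 fish of the lower set beside the other libraries. The score favours low and similar values in these 5 fish, so nothing is read from their likeness. On raw CPM, the median member was 0.47 ± 0.05 (SD, n = 5) below the 9-week mean on the log2 scale in the lower set, with fish between 0.41 and 0.54 below it. In the higher set it was 0.18 ± 0.01 (SD, n = 4) above that mean. Each fish of the lower set had 89 to 114 members below every 9-week fish (59.3% to 76.0%), where 13.9% to 20.6% of the background was. Each fish of the higher set had 2 to 6 members below every 9-week fish (1.33% to 4%), where 7.69% to 19.1% of the background was. Each also had 31 to 54 members above (20.7% to 36.0%), where 14.7% to 17.7% of the background was above. These shares follow in part from the choice of members. As a share of all counts, the members together took 0.448% ± 0.0281 (SD, n = 5) in the lower set and 0.796% ± 0.0361 (SD, n = 4) in the higher set. The share was 0.605% in exercised and 0.711% in unexercised 9-week fish. No library of the lower set reached the share of any other library.

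**Figure D3:**
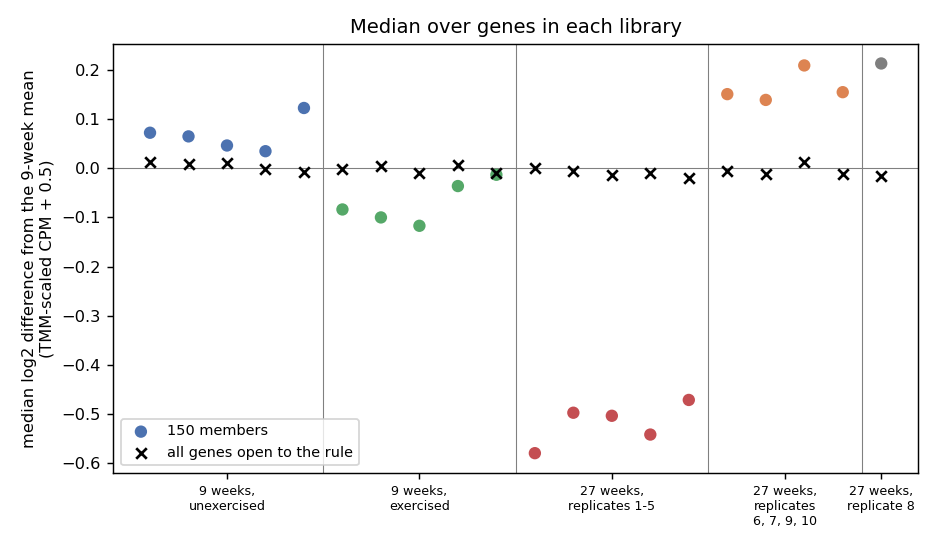
Median over the 150 members (coloured points) and over all 17606 background genes (crosses) of log2(CPM + 0.5) on TMM-scaled CPM minus the mean of the 10 9-week fish, per library, by set. The members lie between -0.58 and -0.47 in the lower set, between 0.14 and 0.21 in the higher set and at 0.21 in replicate 8, while the crosses stay near 0.

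Replicate 8 is the 27-week library that the score did not use, though it entered the mean CPM over the 20 libraries. On TMM-scaled CPM it was above every fish of the lower set in 95.3% of the members. The share was 33.0% in the background and 69.6% in the 955 other genes with a score above 0. The score favours low values in the lower set, which raises this share by construction. It was nearer the mean of the higher set in 88.0% of the members, against 58.8% of the background and 65.7% of the 955 other genes with a score above 0. It lay within or above the range of the higher set in 104 members (69.3%), near the 64.3% of the background, between the sets in 39 and within the lower set in 7. On raw CPM the shares above the lower set and nearer the higher set were lower in members, background and the 955 genes alike. There replicate 8 was above every fish of the lower set in 89 members (59.3%), against 13.0% of the background and 23.8% of the 955 genes. It was nearer the mean of the higher set in 64 (42.7%), against 56.2% and 21.5%. Its median over members was -0.22 from the 9-week mean on raw CPM and 0.21 on TMM-scaled CPM, the value in the plot of medians per library. In that plot the members are farthest from the background in the lower set. With 1 library, no test was made.

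The exercised 9-week fish lay nearer the lower set than the unexercised ones did. The exercised mean was below the unexercised mean in all but 33 members (78.0%), compared with 45.1% of the background genes, which met the same condition of overlapping ranges, and 63.3% of the 1105 genes with a score above 0. The median difference, exercised minus unexercised, was -0.10 on the log2 scale in members and 0.01 in the background. For the 150 genes chosen by the same rule with the sets exchanged, which share no gene with the members, the exercised mean was below the unexercised mean in 33 (22.0%). In those genes replicates 1 to 5 had the higher level. The median difference from replicates 1 to 5 was -0.53 in exercised and -0.59 in unexercised fish on the log2 scale. Exercised fish thus lay nearer replicates 1 to 5 there too, and this order is not particular to the members.

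The same order appears when each fish is placed on a scale from the mean of the lower set, 0%, to the mean of the higher set, 100%, with the median over members. Exercised fish were at 69.1%, 58.4%, 62.3%, 61.9% and 75.1%, or 65.4% ± 6.68 (SD, n = 5). Unexercised fish were at 81.5%, 82.8%, 79.0%, 79.5% and 89.3%, or 82.4% ± 4.16 (SD, n = 5). All 10 fish thus lay above the midpoint, and every unexercised fish lay above every exercised one. Since the members were chosen from these libraries, no p is given for this summary.

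**Figure D4:**
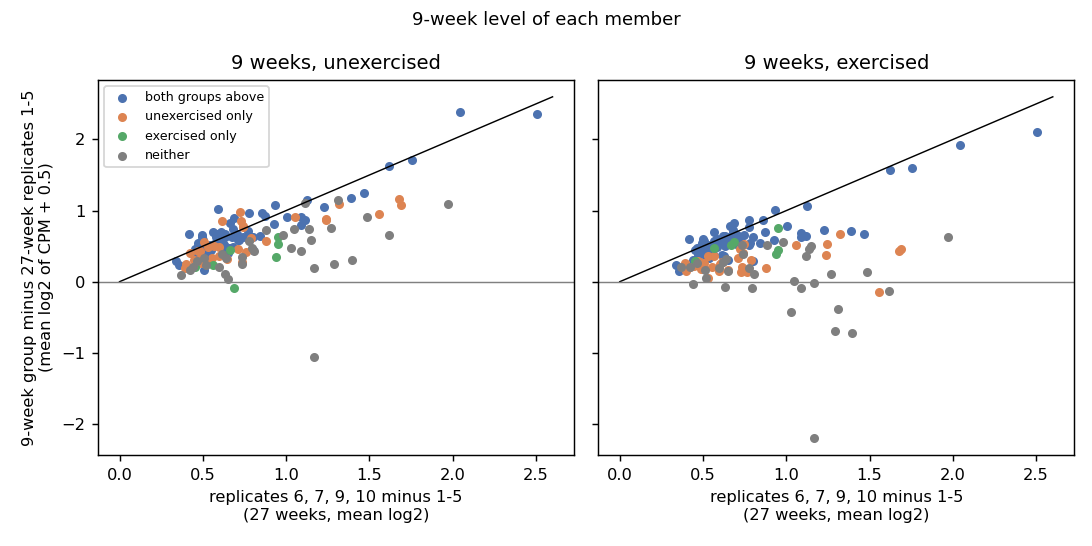
Difference of the 9-week mean from the lower 27-week set (y axis, log2) against the difference of the higher from the lower 27-week set (x axis, log2), 1 point per member, for unexercised (left) and exercised fish (right), coloured by layout. On the diagonal the 9-week mean equals the higher set and at 0 it equals the lower set; the exercised mean lies below 0 in 12 members and the unexercised mean in 2.

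The plot of the 9-week level of each member shows this gene by gene. Most points lie between 0 and the diagonal, and those of exercised fish lie further from the diagonal, with a median of 0.22 below it on the log2 scale compared with 0.15 for unexercised fish. The exercised mean was below the mean of the lower set in 12 members and the unexercised mean in 2.

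Gene by gene, no member passed the test of exercise at 9 weeks. The edgeR quasi-likelihood test on 19123 genes called 4 higher (0.0209%) and 15 lower (0.0784%) in exercised fish at a Benjamini-Hochberg adjusted p below 0.05, and 0 members. At an unadjusted p below 0.05 it gave 41 members, all of them lower in exercised fish (27.3%), where 6.33% of all genes tested were lower and 5.78% higher. DESeq2 called 13 members lower (8.67%), against 0.980% of all genes with an adjusted p, and edgeR called 2 lower (1.33%), against 0.0674%, when exercised replicate 5 was left out. The members had been chosen to overlap in this contrast, and nothing is read from these counts.

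For Nfu_g_1_021184 the fitted log2 fold change of exercised against unexercised fish was -0.26 (SE 0.08, adjusted p = 0.247 by edgeR). For Nfu_g_1_021472 it was -1.0 (SE 0.23, adjusted p = 0.173 by edgeR), from 12.3 ± 5.03 CPM in exercised and 24.3 ± 3.47 CPM in unexercised fish. Their ranges met only at exercised replicate 5 and unexercised replicate 1.

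The comparisons of age took all 10 27-week fish against each 9-week group, and both comparisons share those 10 libraries. Against exercised 9-week fish, edgeR tested 19531 genes and called 226 higher (1.16%) and 195 lower (0.998%). Among the members, 0 were higher and 1 was lower (0.667%). At an unadjusted p below 0.05 there were 18 members, 8 higher and 10 lower, and 22.6% of all genes. The median log2 fold change was -0.01 in members and 0.01 in all genes. Against unexercised 9-week fish, where age and exercise differ together, 19591 genes were tested, with 503 higher (2.57%) and 350 lower (1.79%). Of the members 0 were higher and 3 lower (2.00%). The unadjusted count was 23 members, 1 higher and 22 lower, and 25.3% of all genes. The median log2 fold change was -0.18 in members and 0.01 in all genes. The choice of members favours a wide spread over the 10 27-week fish, which makes calls in both comparisons less likely. Nothing is therefore read from how many members were called.

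The member called in both comparisons, rank 115, was lower in both 27-week sets. It had 50.1 to 59.6 CPM in the lower set and 71.7 to 76.3 CPM in the higher set, with 46.0 CPM in replicate 8. Exercised 9-week fish had 80.6 to 85.7 CPM and unexercised ones 85.3 to 93.8 CPM, so every 27-week fish was below every 9-week fish. Its log2 fold change was -0.41 (SE 0.10, adjusted p = 0.0448 by edgeR) against exercised and -0.51 (SE 0.10, adjusted p = 0.0176 by edgeR) against unexercised fish. The other calls against unexercised fish were rank 53, at -0.82 (SE 0.17, adjusted p = 0.0234 by edgeR), and a member of lower rank, at -0.46 (SE 0.12, adjusted p = 0.0456 by edgeR). In both, the higher set overlapped the unexercised range in part. Rank 53 had 7.08 to 8.98 CPM in the higher set and 8.76 to 14.1 CPM in unexercised fish, and the other member had 44.7 to 51.2 and 49.1 to 62.1 CPM.

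The members with the highest scores were not called, since their 27-week fish were spread over both sets. Nfu_g_1_021184 averaged 130.2 ± 96.4 CPM (SD, n = 10) at 27 weeks, and its log2 fold change was -0.39 (SE 0.53, adjusted p = 0.691 by edgeR) against exercised and -0.65 (SE 0.52, adjusted p = 0.457 by edgeR) against unexercised 9-week fish. Nfu_g_1_008080 averaged 25.3 ± 14.8 CPM (SD, n = 10), with -0.47 (SE 0.40, adjusted p = 0.505 by edgeR) and -0.60 (SE 0.40, adjusted p = 0.362 by edgeR). With the higher set alone, the direction of both turned against either 9-week group.

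Single libraries changed some of these counts, in members and in all genes alike. Against exercised fish, 0 members were called without any 1 of the exercised replicates 1 to 5. Of all genes, 0.0356% to 0.859% were called there. The members called were also 0 without 27-week replicate 2, 3 or 5, where 0.963% to 1.72% of all genes were. They were 2 (1.33%) without 27-week replicate 6, where 3.70% of all genes were called, and 3 (2.00%) without replicate 8, 2 higher and 1 lower, where 4.71% of all genes were. Against unexercised fish, they were 1 (0.667%) without unexercised replicate 1, 4 or 5, where 0.746% to 0.898% of all genes were called. They were 5 (3.33%) without 27-week replicate 6, where 5.87% of all genes were called, and 6 (4%) without replicate 8, where 7.93% were. Leaving out replicate 8 brought both members with a higher level at 27 weeks past the threshold against exercised fish. The log2 fold change of Nfu_g_1_010874 against exercised fish went from 8.92 (adjusted p = 0.0841 by edgeR) to 3.50 (adjusted p = 0.00176 by edgeR), and against unexercised fish from 7.03 (adjusted p = 0.0991 by edgeR) to 1.63 (adjusted p = 0.0458 by edgeR). That of Nfu_g_1_021472 against exercised fish went from 1.61 (adjusted p = 0.0572 by edgeR) to 1.48 (adjusted p = 0.0485 by edgeR). It also passed without 27-week replicate 4, at 1.72 (adjusted p = 0.0420 by edgeR). Against unexercised fish Nfu_g_1_021472 stayed past no threshold without replicate 8, at 0.49 (adjusted p = 0.393 by edgeR).

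With 1 of the 27-week sets at a time, the counts follow from how the members were chosen, and nothing is read from them. The lower set alone gave 92 members lower than exercised 9-week fish, where 7.07% of all genes were called lower, and 79.3% of the members lower than unexercised fish, where 10.1% of all genes were. The higher set alone gave 17 members higher than exercised fish, against 0.795% of all genes, and 1 higher than unexercised fish, against 1.02%.

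The spread within a group was measured for each member. The median SD of log2(CPM + 0.5) was 0.180 in exercised 9-week fish, compared with 0.149 in the background, and 0.156 compared with 0.144 in unexercised fish. It was 0.148 compared with 0.158 in the lower set and 0.120 compared with 0.144 in the higher set. Over all 10 27-week fish it was 0.400 compared with 0.269. The score favours a small spread within each 27-week set and a large one over all 10 fish, so nothing is read from the 27-week values.

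Few members made up a large part of the main component of variation inside sets. After each set's mean was removed, the first principal component held 42.1% of the members' variance over the 19 libraries other than replicate 8, compared with 27.8% in the background and 21.9% in the 150 genes of the exchanged rule. Only 7 members made up at least 50% of it, all in the same direction. Their levels were highest of the group in unexercised replicate 5 for 7 of the 7, and in exercised replicate 5 for 6 of the 7. The median of the 7 was 0.97 above its set mean on the log2 scale in exercised replicate 5 and 0.70 above in unexercised replicate 5. It was 0.45 below, or -0.45, in exercised replicate 1, and -0.61 in unexercised replicate 1. In the lower set it was -0.74 in replicate 1 and 0.60 in replicate 5, and in the higher set it stayed between -0.23 and 0.27. The median over all other members stayed within 0.06 of the set mean in every library, which does not limit single members. Ranks 6, 7, 12, 18, 22, 32, 110 and 147, which are not among the 7, were also highest in replicate 5 of both 9-week groups on TMM-scaled CPM. These are examples, not a full list. The pattern is thus not confined to the 7. How many further members or background genes had it was not counted.

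**Figure D5:**
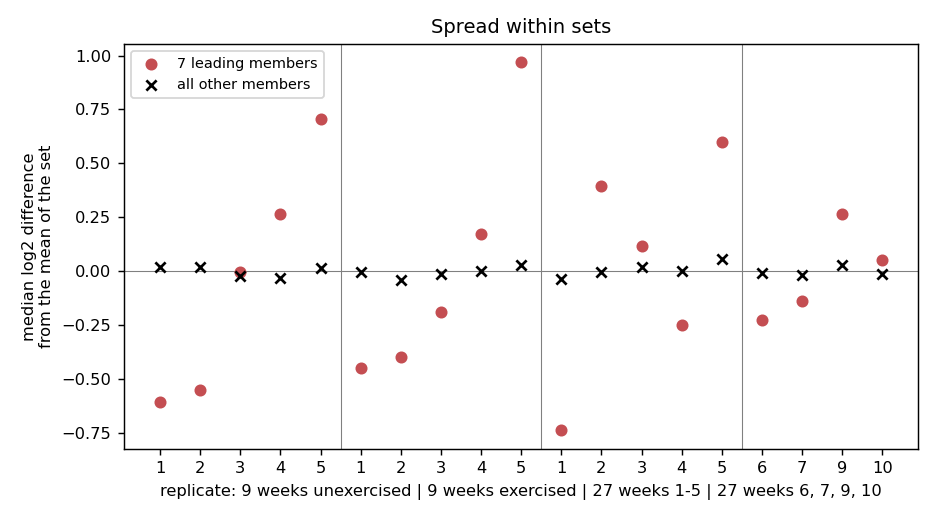
Median deviation from the set mean, in log2(CPM + 0.5), per library for the 7 members that make up at least 50% of the first within-set component and for the other members. The 7 range from -0.74 in 27-week replicate 1 to 0.97 in exercised 9-week replicate 5, while the median of the others stays close to 0.

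The plot of deviations from set means shows the median of these 7 beside the median of the remaining members. None of the 7 was among the 10 highest scores, as their best rank was 13. In all 7 the exercised 9-week group was not wholly above the lower set. It was wholly above in 56.0% of the 150 members and in 5.55% of the background. A wide spread inside sets, by which the 7 were picked, makes such an overlap more likely. The median implied length of the 7 was 1251 bp. These 7 were picked from the values plotted, so no test is given.

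Implied gene length, which the choice of members did not use, had fewer long genes among the members. The median was 2494 bp (quartiles 1252 and 3882 bp), compared with 2742 bp in the background and 3275 bp in the 150 genes of the exchanged rule. Lengths of at least 6000 bp occurred in 6 members (4%), in 15.7% of the background and in 13.3% of the exchanged set. Lengths below 1000 bp occurred in 29 members (19.3%), in 16.6% of the background and in 9.33% of the exchanged set. The layouts differed. The 77 members with the lower set below all 9-week fish had a median of 3005 bp, with 13.0% below 1000 bp and 5.19% of at least 6000 bp. The median was 1839 bp with the lower set below the unexercised group only, 1671 bp below the exercised group only and 2017 bp below neither. Overall level did not set the members apart in the middle of the range, with a median mean of 20.1 CPM compared with 20.2 CPM in the background. The part of gene length in the difference between the 27-week sets was not tested.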

How the data were processed

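Per the labels' protocols, the 20 brain RNA libraries of male turquoise killifish were made with Illumina's TruSeq RNA kit (v2). Tools listed in the submitters' processing notes, without a role or order, are featureCounts 1.4.6-p4, STAR 2.4.1d and bcl2fastq 1.8.4. The sources used here do not name a genome build, an annotation or a strand setting. Totals ran from 15048627 to 34843199 counts per library. The authors deposited whole-number counts per gene, used as deposited, and RPKM values. Over 10327 genes the length implied by RPKM and count varied with a log2 SD of 0.413 when each library's own total was used, and of 4.16e-05 with the 20 totals taken in turn down the table. The deposited RPKM were therefore used only for implied length (23078 genes, all 150 members). Between replicates, chi-square per degree of freedom was at least 7.57, so no library was counted as a copy of another. Replicate numbers follow the order of listing and pair no samples.

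The members, comparisons and alternatives were chosen with earlier results of these data known. CPM was computed on column sums, with a pseudocount of 0.5 on the log2 scale. The groups of a comparison were fitted alone in edgeR 4.0.16 (R 4.3.3) with filterByExpr, TMM and the quasi-likelihood test, two-sided, adjusted by Benjamini-Hochberg over all genes tested with a threshold of 0.05. Fold changes are log2 with standard errors. Alternatives were DESeq2 1.42.0, its size factors in edgeR, no filter, all samples in 1 fit, each 27-week set alone and each replicate left out. The edgeR step was tested on simulated data. For 27-week against exercised 9-week fish (19531 genes) it recovered 8.96% of genes changed 1.5-fold, 44.8% changed 2-fold and 98.5% changed 4-fold. With no gene names, 4 members are named by identifier: the 2 highest scores, and the 2 others with the highest log2 fold change of 27-week against exercised 9-week fish. Other members are given by rank. Ranks singled out beyond that were chosen after their values were seen.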

Additional observations from a re-analysis of the deposited data

Results flagged for a closer look

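In both 9-week groups of 5 fish and in all 10 27-week fish, the values of the 4 named members and the median and share of counts of all members were searched for a single fish far from its group. Of 18 groups of values 1 was marked, and chance alone marks about 1 in 20. Nfu_g_1_010874 stood at 2552 CPM in 27-week replicate 8, or 72889 counts, while the other 9 27-week fish had 4.02 to 15.4 CPM. The gap to the next fish was 0.996 of the whole range. Replicate 8 also had the lowest TMM factor, 0.736, and whether that bears on this gene was not tested.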

How the results depend on the processing

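No paired analysis was possible because replicate numbers are absent from the labels, and those used here only name a library. The share of the 150 members called against exercised 9-week fish (0.667%, or 1 member, in edgeR) was 0% with no filter on low counts (1.46% of all genes), 4% with DESeq2 (8.70% of all genes), 3.33% with all 20 samples in the fit (6.12%), 62.0% with titles JM132 to JM136 only (16.4%), 11.3% with titles JM139 to JM144 without JM141 (1.34%), and 0% to 2% (0 to 3 members, and 0.0356% to 4.71% of all genes) with a replicate left out. Against unexercised fish (2%, or 3 members) it was 6% with DESeq2 (11.4% of all genes), 4% with all 20 samples (9.10%), 79.3% with titles JM132 to JM136 only (23.0%), and 0.667% to 4% (1 to 6 members, and 0.746% to 7.93% of all genes) with a replicate left out. For exercise at 9 weeks (0%) it was 8.67% with DESeq2 (1.75% of all genes) and 0% to 1.33% (0 to 2 members, and 0% to 0.0778% of all genes) with a replicate left out. Some directions reversed with 1 set of 27-week fish. With titles JM139 to JM144 without JM141, the log2 fold change became 0.38 for Nfu_g_1_021184 and 0.14 for Nfu_g_1_008080 against exercised fish, and 0.13 and 0.0226 against unexercised fish. With titles JM132 to JM136 it became -0.30 for Nfu_g_1_021472 against unexercised fish. These follow from the choice of fish, and the cause of the other changes was not tested. Of the 150 members, 108 to 147 remained with 1 replicate left out, 128 to 146 with TMM library sizes, a pseudocount of 0.1 or 1, a minimum of 5 CPM or no minimum, and 72 with replicate 8 placed in the higher set. On TMM-scaled CPM unexercised fish moved to 86.8%, and replicate 8 was above the lower set in 95.3% of the members, compared with 59.3% on raw CPM. In the simulated data small changes were recovered less often than large ones, and all counts carry the spread of 5 fish per 9-week group.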

Other observations

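In the order of rows in the deposited table, 5 pairs of members stood on adjacent rows, which involves 10 members. The files do not say what that order stands for. In replicate 8, 4 members (2.67%) were at least 4-fold above the highest fish of the higher set on TMM-scaled CPM, near the 3.21% of the background. On raw CPM there were 3 (2%), near the 2.68% of the background.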
